A study of Oryza sativa with 8 samples.

Results

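Root transcripts of rice that expressed the protein kinase gene OsPSTOL1 were compared with those of null plants in soil short of phosphorus (P). The comparison took the 2 transgenic (T) arrays and the 2 null (NT) arrays of P-deficient soil, which are 4 of the 8 arrays analysed here. All probe sets that are not controls were set against each other, 57194 of 57381. Both groups are of the cultivar IR64 and were sampled as roots at heading in greenhouse pots. T plants carried OsPSTOL1 behind the constitutive 35S promoter, and NT plants were the corresponding segregants without it. The other 4 arrays hold T and NT roots of P-fertilised soil at mid-tillering, so between the soils P supply and growth stage cannot be told apart. How many transformation events the T plants stand for is not given in the sources used here.

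OsPSTOL1 is a receptor-like cytoplasmic kinase of the P uptake locus Pup1, found in the traditional variety Kasalath and lacking in IR64. It is known for promoting early root growth, which widens the soil volume from which a plant takes up phosphate. Rice roots short of P switch on a further system, in which PHR transcription factors drive phosphate transporters and SPX proteins that sense phosphate status. OsPSTOL1 itself had no named probe set, so the level of the transgene was not read.

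Each probe set is a group of short probes against 1 stretch of a transcript, mostly near its 3-prime end, and its signal is a linear intensity. Summed signals per array were 8060018 to 8802152 over the 8 arrays. Taken over probe sets, none of which is a replicate, the log2 signals correlated at 0.973 between the T replicates and at 0.964 between the NT replicates of P-deficient soil. T replicate 2 correlated with NT replicate 1 at 0.978, above either replicate pair. The SD of the log2 difference between replicates was 0.372 in T and 0.423 in NT, against 0.282 and 0.275 for T and NT in P-fertilised soil. The labels call the replicates biological but name no separate pots, so the spread between arrays that p-values measure may be technical. That spread was pooled over all 4 groups, and the arrays of P-fertilised soil varied less.

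In soil short of P, control probe sets that read different parts of 1 transcript stood apart on the T arrays. The 5-prime probe set of the glycolytic enzyme GAPDH read 19.6 and 1364.8 in T, against 3408 and 3725.3 in NT. Its middle probe set read 974.8 and 3214.2 in T, against 3649.2 and 3852 in NT. Its 3-prime probe set read 3878.6 and 4161.3 in T, against 3923.4 and 4510.7 in NT. The gap between the groups thus shrank toward the 3-prime end, and T replicate 1 lay lowest in all 3 probe sets. Actin, which builds the cytoskeleton, has a second 5-prime probe set, and this one read 2.5 and 2.1 in T, against 89.3 and 122.7 in NT. Its 3-prime counterpart read 1705.6 and 1234.6 in T, against 1133 and 1879.1 in NT, with overlapping arrays. Among the tested probe sets, 3711 and 3383 read under 10 in T, against 2054 and 2782 in NT. A fit with the GAPDH ratio as a covariate stands beside the counts of probe sets.

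**Figure D1:**
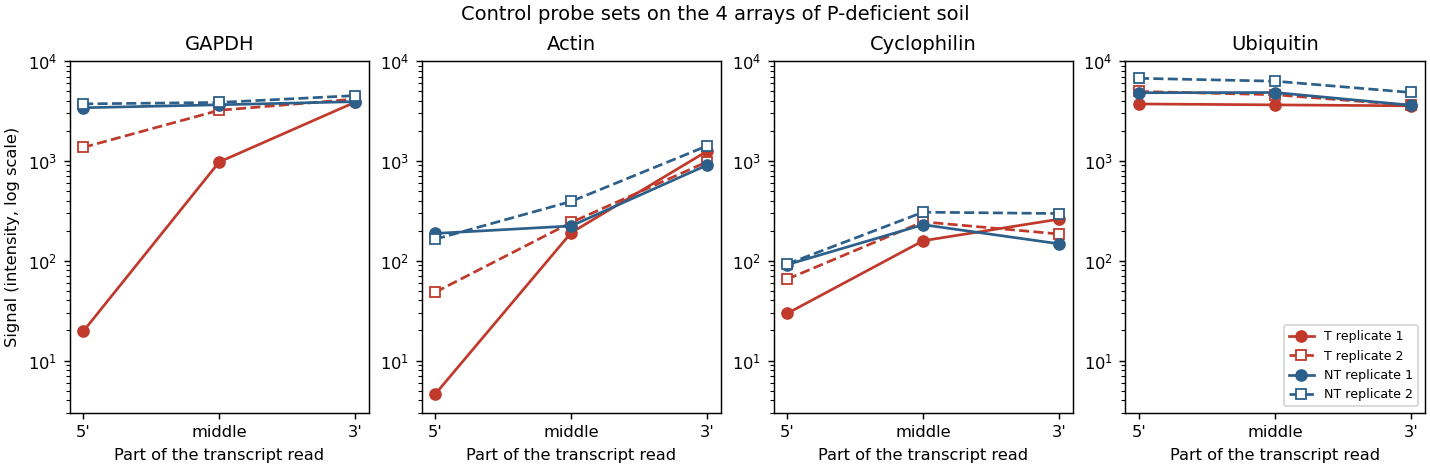
Signal of control probe sets (intensity, log axis) at the 5-prime end, the middle and the 3-prime end of 4 transcripts on the 2 T arrays (red) and the 2 NT arrays (blue) of P-deficient soil. GAPDH and actin fall off toward the 5-prime end on T replicate 1 most (19.6 for GAPDH, 4.6 for actin), while ubiquitin is nearly level on every array.

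The filter on mean signal took all 8 arrays, the compared groups included. A probe set dim elsewhere could thus clear it through 1 group alone, as some of those that passed did. After the 40% of probe sets with the lowest mean signal were left out, 34316 were tested with limma on log2(signal + 32). In P-deficient soil 37 of them passed an adjusted p of 0.05 (0.108% of those tested), 4 higher in T (0.0117%) and 33 lower (0.0962%). The same lean showed in size alone. A difference of at least 1 on the log2 scale was found downward in 469 probe sets (1.37%) and upward in 31 (0.0903%). In P-fertilised soil these counts were 44 (0.128%) and 29 (0.0845%). In P-deficient soil they were 951 and 124 with T replicate 2 left out, 707 and 239 with NT replicate 1 left out, and 705 and 52 with NT replicate 2 left out. With T replicate 1 left out the downward count fell below 469, while the upward count rose above 31. At an unadjusted p under 0.05 there were 2988 lower (8.71%) and 1563 higher (4.55%). In bulk roots, fewer cells of a type and less RNA per cell cannot be told apart. The number that passed was 15 with T replicate 1 left out, 504 with T replicate 2 left out and 8 with NT replicate 2 left out. Where an array was left out, the lone array of its group was assumed to vary like the other groups. The number that passed was 0 with the GAPDH 3-prime to 5-prime ratio of each array as a covariate. The falls of the named genes with a passing probe set were then -1.99 to -6.23, against -2.02 to -6.56 without the covariate.

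The clearest rise was that of BURP2 (LOC4338119), a member of the plant-specific BURP-domain family. Its passing probe set read 940.3 and 1206.4 in T, against 71.6 and 83.6 in NT. Every T array lay far above every NT array, and the difference was 3.33 ± 0.28 (log2, SE, limma adjusted p = 0.00946). Its other probe set read 73.5 and 83.4 in T, against 14.7 and 60.9 in NT, a difference of 0.74 ± 0.33 (adjusted p = 0.387). Both probe sets were thus higher on both T arrays, though only the brighter passed. In P-fertilised soil the brighter one read 1409.8 and 1380.8 in T, against 2775.9 and 1425 in NT, with both T arrays the lower. The difference between soils, 3.83, did not pass (limma adjusted p = 0.123). BURP2 no longer passed with array weights (limma adjusted p = 0.0509), with a replicate block (0.079) or with the GAPDH covariate (0.199). With that covariate the difference was 3.6 ± 0.41. Without NT replicate 2, which leaves a lone NT array in that soil, the difference was 3.4.

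The other 3 probe sets that were higher read lower signals. That of LOC4347210, a gene without a literature name, read 55.5 and 44.4 in T, against 9 and 9.3 in NT (0.99 ± 0.12, limma adjusted p = 0.0397). Its second probe set read 56.3 and 66.4 in T, against 71.8 and 59.8 in NT, so the 2 probe sets of this gene disagreed. The remaining 2, named here after their values were seen, have no listed gene. One read 94.4 and 72.7 in T, against 10.2 and 21.1 in NT. In P-fertilised soil it read 4.4 and 1.6 in T, against 2.5 and 3 in NT, so it cleared the filter only through its high T arrays. The other read 120.7 and 120.3 in T, against 27.2 and 16.9 in NT.

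Of the 33 probe sets that fell, 16 are listed with 1 gene, and 14 of these genes have at least 1 other tested probe set. The largest fall was that of LOC4338208, with 1.6 and 10.2 in T, against 3670.2 and 3389.7 in NT (-6.56 ± 0.43, limma adjusted p = 0.00646). Its second probe set read 3740.4 and 4229.7 in T, against 4100.6 and 5136.2 in NT. One probe set thus placed the gene near the floor of the array in T and the other placed it among the bright genes. Differences with signals under 32 are understated by the pseudocount, so this one was -9.35 with a pseudocount of 1 and -5.10 with 100.

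AldC-1 (LOC4325027) codes for the aldolase that splits fructose bisphosphate in glycolysis. Its passing probe set read 39.5 and 105 in T, against 1931.8 and 3199.1 in NT (-4.67 ± 0.35, limma adjusted p = 0.00646). Its other tested probe set read 3539 and 3840.9 in T, against 3257.7 and 5079.6 in NT, where T lay between the NT arrays. One more, untested, read 0.6 and 0.8 in T, against 1.5 and 1.6 in NT.

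PAL (LOC4330034) codes for phenylalanine ammonia-lyase, the entry enzyme of phenylpropanoid and lignin synthesis. Its passing probe set read 7 and 28.2 in T, against 500.5 and 625.2 in NT (-3.61 ± 0.29, limma adjusted p = 0.00677). The other 4 probe sets differed by -0.33, -0.16, 0.15 and -0.11, and the second of these, the brightest, read 3028.9 and 3182.5 in T, against 3018.8 and 3995.9 in NT. No other PAL probe set therefore showed the fall.

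CAT-B (LOC4342124) codes for a catalase, which breaks down hydrogen peroxide. Its passing probe set read 6.8 and 17.2 in T, against 422.3 and 243.6 in NT (-3.02 ± 0.34, limma adjusted p = 0.0294). Of the other 4, 1 read 3271.4 and 3261.2 in T, against 3098.2 and 3466.1 in NT. Another read 1331.3 and 1371.6 in T, against 1063.1 and 820.4 in NT, higher on both T arrays (0.52 ± 0.16, adjusted p = 0.266). Probe sets of this 1 gene thus lay on both sides of 0.

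HAK7 (LOC4344235), a potassium transporter gene, and CPK13 (LOC4336783), a calcium-dependent protein kinase gene, gave the same picture. The passing probe set of HAK7 read 25.1 and 43.4 in T, against 358.7 and 253.4 in NT (-2.35 ± 0.23, limma adjusted p = 0.0139). Its other probe set read 1237.4 and 1232.9 in T, against 1133.5 and 1448 in NT. That of CPK13 read 31.9 and 31.8 in T, against 250.5 and 204.3 in NT (-2.02 ± 0.18, limma adjusted p = 0.0112). For CPK13, too, the other probe set was bright and close between groups, with 2743.6 and 2456.9 in T, against 2608.7 and 3108 in NT.

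LOC4326043, a gene without a literature name, differed from these in that both of its probe sets were low in T. The passing one read 0.2 and 56.6 in T, against 2044.1 and 1938.8 in NT (-5.24 ± 0.48, limma adjusted p = 0.0112). The other read 35.9 and 161.8 in T, against 831.9 and 787.4 in NT (-2.87 ± 0.41, adjusted p = 0.059). Both also read lower on both T arrays in P-fertilised soil, the first with 185.3 and 440.2 in T, against 740.6 and 643.3 in NT. LOC4330036 stood between the 2 patterns. Its 3 probe sets differed by -3.37 (passing), -1.74 and -0.18, and the last of them was the brightest.

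**Figure D2:**
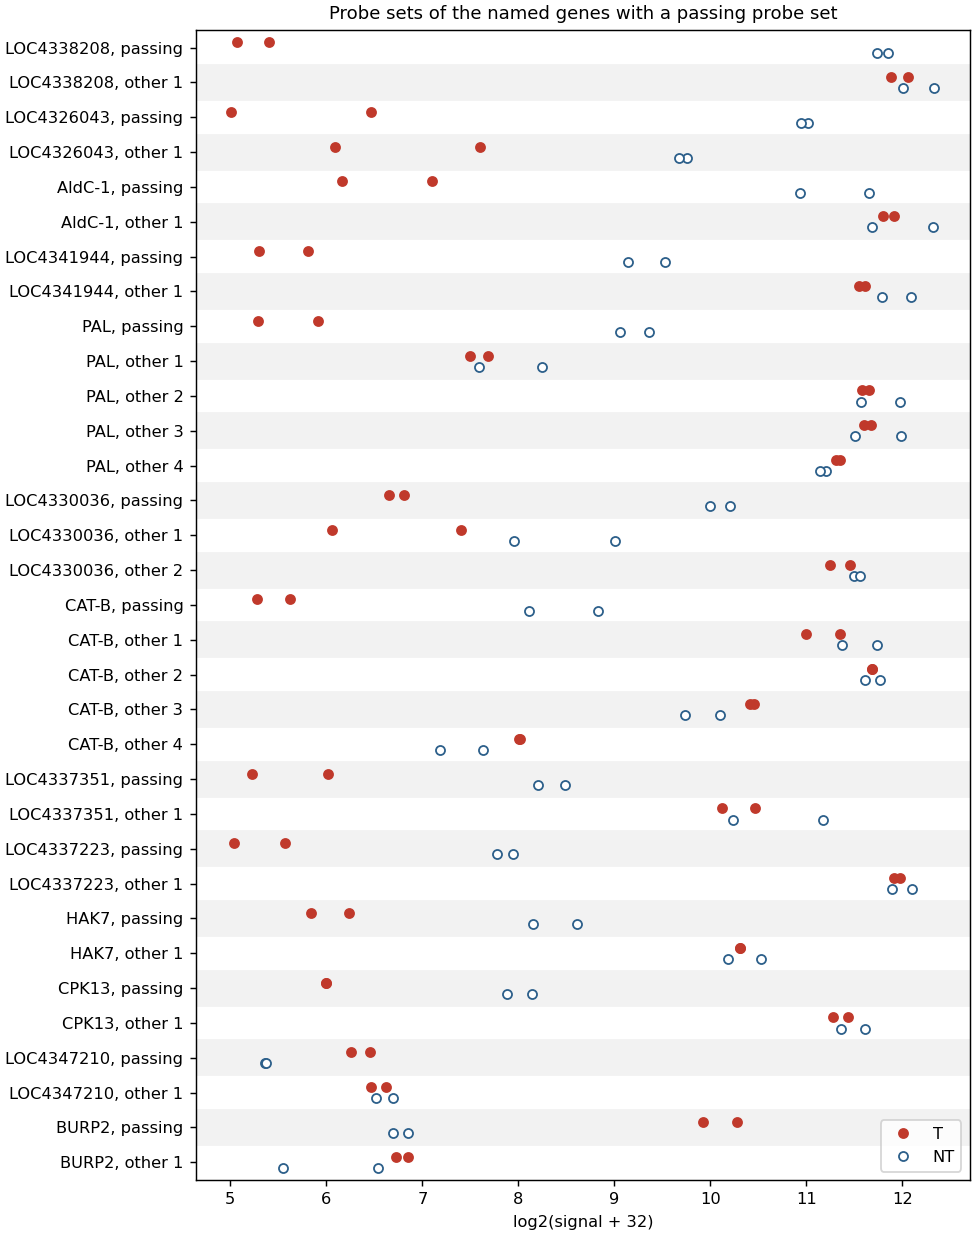
Signals (log2 of signal + 32) of every tested probe set of the 13 named genes with a passing probe set and a second tested one, with the 2 T arrays as filled red points above the 2 NT arrays as open blue points. The passing probe sets mostly stand far apart between groups, that of LOC4347210 least (0.99). The other probe sets of the same gene mostly sit at the bright end with T and NT side by side. Exceptions include those of LOC4326043, that of LOC4330036 at -1.74, and the dim ones of BURP2 and LOC4347210.

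Over the 14 genes, the other 21 tested probe sets had a median difference of -0.14, against -2.87 for the passing ones, whose size the choice fixes. Of the 21, 0 passed by limma, 2 were lower by at least 1, and 17 lay within 0.5 of 0. Their arrays did not overlap with T lower in 5 and with T higher in 3, where the shares over all tested probe sets were 22.9% and 17.6%. The passing probe set was dimmer than the brightest other one in 13 of the 14 genes, judged in P-fertilised soil. There the brightest other one exceeded it by a median of 6.61 times, with a range of 0.481 to 31.5. No share over all genes is given beside the 13 of 14, and any probe set but a gene's brightest counts toward it. The 33 that fell included 14 of the kind whose probes can also match other transcripts (name ending in _x_at), or 42.4%, against 13.5% of all tested. In 30 of the 33, T replicate 1 read below T replicate 2, against 48.2% of all tested. Both T arrays read under 32 in 21 of them, and no T array exceeded 116.

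The same 33 probe sets were read on the 4 arrays of P-fertilised soil. These arrays entered the filter and the estimate of spread behind the choice of the 33, so their values are given as a description. There 29 were lower in T by any amount, against 46.5% of all tested, and 15 had arrays that did not overlap with T lower, against 16.2%. Their median difference was -0.34, and 1 was lower by at least 1. The GAPDH ratio in P-fertilised soil was 1.55 to 2.16 over both genotypes. A test of the difference between soils called 0 of the 34316 (0%), with a smallest limma adjusted p of 0.123 and 2032 at an unadjusted p under 0.05 (5.92%).

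Agreement among probe sets of a gene was then taken over the 2471 genes with at least 2 tested probe sets. All probe sets of a gene shared a direction in 1284 of them (52%), with 678 higher and 606 lower. In P-fertilised soil the count was 1287 (52.1%). With only 2 probe sets, unrelated directions would agree nearly as often, so these shares are not read as agreement. The range between the probe sets of a gene had a median of 0.279 in P-deficient soil, against 0.165 in P-fertilised soil. A range of at least 2 was found in 34 genes in P-deficient soil and in 0 in P-fertilised soil. Sharing a direction was therefore about as frequent in both soils, while probe sets of a gene stood farther apart in the arrays of P-deficient soil at heading.

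This spread ran mostly one way. The dimmest and the brightest probe set of each gene were set by their mean log2 signal in P-fertilised soil. In P-deficient soil 81 genes had the dimmest lower in T by at least 1 with the brightest within 0.5 of 0, and 0 genes had the dimmest higher in this way. With the roles turned, 10 genes had the brightest lower and 3 had it higher. In P-fertilised soil the first 2 counts were 5 and 1. The median difference over the 2471 genes was -0.04 for the dimmest and 0.07 for the brightest. Without T replicate 1 the count of 81 was 52, and the count of 0 became 8 with NT replicate 1 left out, 3 with T replicate 2 left out and 2 with NT replicate 2 left out.

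**Figure D3:**
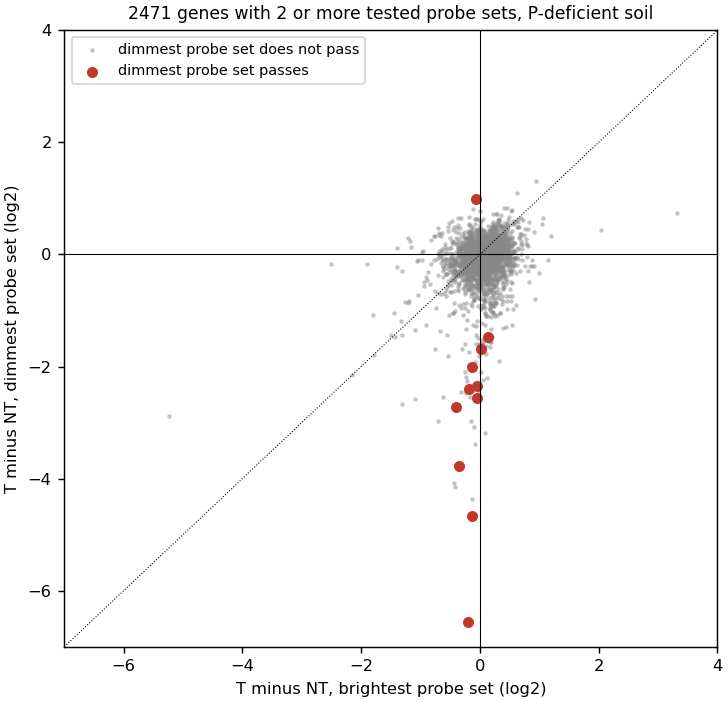
T minus NT difference in P-deficient soil (log2) of the brightest (horizontal) and the dimmest (vertical) probe set of each of 2471 genes, with 1 point per gene, red where the dimmest passed. A tail of genes hangs straight down at a brightest difference near 0, which holds 81 genes lower by at least 1, and no such tail points upward.

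In 144 genes (5.83% of the 2471) every tested probe set was higher in T with no overlap of arrays, and in 116 (4.69%) every one was lower. Over single probe sets these shares were 17.6% higher and 22.9% lower, and how often unrelated probe sets would agree was not tested. A difference of at least 1 in every probe set was reached by 11 of those lower and 0 of those higher. At 0.5 the counts were 25 lower and 15 higher. LOC4326043, described above, is among those lower by at least 1, and 1 of its probe sets passed. The genes that follow are those with a literature name. Apart from 1 probe set of BURP2, none of them passed the limma test, and they are given as values. The probe sets of EXLA2, MPK10 and SGR, and some of AGL10, have names that differ only in the ending. They belong to the same target, so their agreement does not compare separate stretches of the transcript.

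On the higher side, HOX7 (LOC4329705), a homeodomain-leucine zipper transcription factor gene, came first. One probe set read 534.7 and 616.2 in T, against 471.6 and 166.8 in NT (0.94 ± 0.36, limma adjusted p = 0.337). The second read 469.8 and 550.8 in T, against 320.3 and 102 in NT (1.32 ± 0.39, adjusted p = 0.252). NT replicate 2 was the low array in both, and without NT replicate 1 the differences were 1.61 and 2.01. With NT replicate 2 left out they differed by 0.27 and 0.62, so the size rests largely on that array. OsC3H2, a CCCH zinc finger gene, read 1646.8 and 1697.9 in T, against 1173.6 and 729.2 in NT with its brighter probe set (0.83), and its dimmer one differed by 0.58. SGR, the stay-green gene that acts in chlorophyll breakdown, differed by 0.53 and 0.80. EIP1 (0.49 and 0.62), the beta-glucosidase gene BGLU16 (0.48 and 0.43), FEN1B, for a flap endonuclease of DNA repair (0.37 and 0.44), and the protein phosphatase gene OsPP2C48 (0.51 and 0.35) had smaller differences. So did the transcription factor gene myb30 (0.52 and 0.32) and the glutaredoxin gene GRXS4 (0.29 and 0.35). For GRXS4 one probe set read 382.4 and 349.3 in T, against 290.9 and 270.2 in NT.

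On the lower side the differences were larger. EXLA2 (LOC4349265), an expansin-like gene of the family of cell wall loosening proteins, read 59.6 and 323.8 in T, against 496.1 and 692.7 in NT (-1.78 ± 0.53, limma adjusted p = 0.253). Its second probe set read 63.5 and 266.6 in T, against 405.5 and 756.1 in NT (-1.80 ± 0.48, adjusted p = 0.226). T replicate 1 was several times lower than T replicate 2 in both. The same held for MPK10, a MAP kinase gene, with 22.3 and 151.3 in T, against 237.9 and 201.9 in NT (-1.33), and 49.9 and 267.4 in T, against 331 and 319.4 in NT (-1.19). It also held for ta4, with 21.6 and 343.7 in T, against 841.9 and 909.1 in NT (-2.68), and -1.31 in its other probe set. NAC071, a NAC transcription factor gene, read 85.5 and 354.8 in T, against 443.5 and 477.6 in NT (-1.21), and its second differed by -0.87. Without T replicate 2 the differences were larger, at -2.76 for the first probe set of EXLA2, -2.21 and -2.12 for MPK10, and -4.08 and -2.0 for ta4. These rest on T replicate 1 alone, whose GAPDH 3-prime to 5-prime ratio was 198. With T replicate 1 left out the differences were smaller, at -0.80 and -0.98 for EXLA2, -0.45 and -0.25 for MPK10, -1.27 and -0.61 for ta4, and -0.35 for the brighter probe set of NAC071. With the GAPDH covariate 1 probe set each of MPK10 (0.18) and NAC071 (0.05) had the opposite sign.

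SUS1 (LOC4333062), a sucrose synthase that cleaves sucrose in sink tissue, read 430.8 and 364.7 in T, against 500.5 and 1551.7 in NT (-1.10 ± 0.41, limma adjusted p = 0.324). Its second probe set read 18.3 and 94.1 in T, against 282.9 and 685.6 in NT (-2.58 ± 0.46, adjusted p = 0.103). Here NT replicate 2 stood high in both. With it left out the differences were -0.31 and -1.98, while the first was -1.89 without NT replicate 1 and the second -3.24 without T replicate 2. OsWRKY71, a WRKY transcription factor gene tied to defence, had 1 probe set at 1.1 and 1.1 in T, against 651.9 and 467.8 in NT (-4.14 ± 0.65, adjusted p = 0.0733). Its other one read 1784.3 and 2173 in T, against 2277.8 and 3042.8 in NT (-0.41), so the shared direction joins very unequal sizes. The MADS-box gene AGL10 differed by -0.56, -0.55 and -0.93 in 3 probe sets, and 1 more, untested, read 1.4 and 0.3 in T, against 8.6 and 6.8 in NT. CH6 (-0.68 and -0.50) and OsTBL15, of a family of cell wall acetylation genes (-0.34 and -0.57), completed the 10 together with the phosphate transporter gene PT3.

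**Figure D4:**
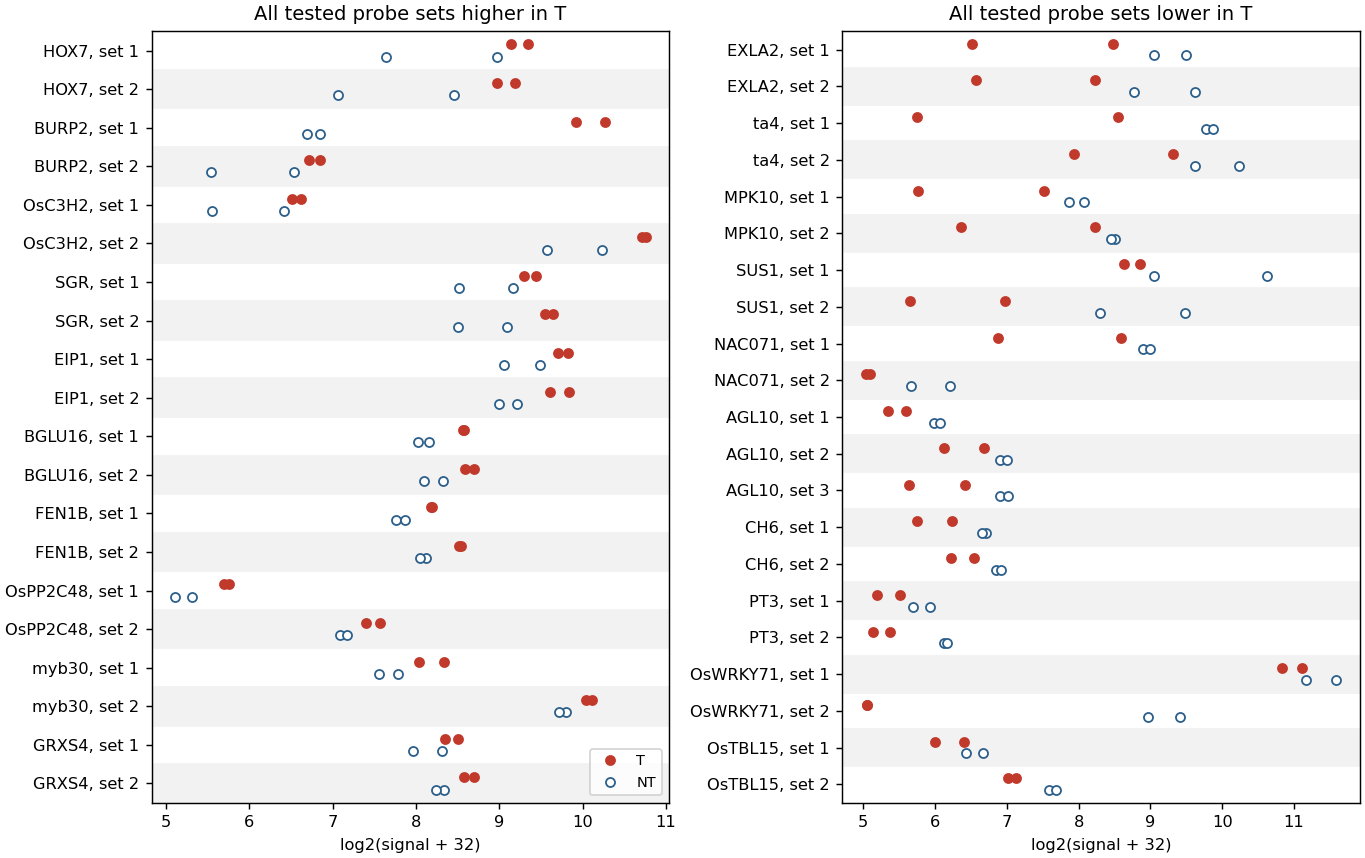
Signals (log2 of signal + 32) of genes with a literature name, 10 each way, whose tested probe sets all differ one way with no overlap of arrays. T is shown as filled red points above NT as open blue points, 1 row per probe set. On the left (higher in T) the NT arrays are often the more scattered, as in HOX7, and on the right (lower in T) the T arrays are, as in EXLA2, MPK10 and ta4.

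Gene lists were described through the brightest tested probe set of each gene. Over all 16166 genes the median difference was 0.06, 4 passed by limma (0.0247%), and arrays did not overlap in 3885 with T higher (24%) and in 2095 with T lower (13%). Counts of the lists, all without overlap of arrays, are read beside these shares. In the lists 1 gene passed on this measure, BURP2.

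The phosphate genes concern the supply that sets this soil apart. Among SPX genes, whose products sense phosphate status, 2 of 5 were higher without overlap and 1 was lower (median 0.05). SPX1 read 1922 and 1635.8 in T, against 1577 and 2549.5 in NT, and SPX3 read 572.3 and 345.1 in T, against 362.3 and 504.7 in NT, with T and NT overlapping in both. SPX2 read 503.2 and 505.4 in T, against 344.3 and 473 in NT (0.30 ± 0.20, limma adjusted p = 0.551). The brighter probe set of SPX5 differed by 0.16, and its dimmer one by -0.01 with overlap. SPX4, the lower one, differed by -0.46, while its second probe set was higher without overlap (0.22). With T replicate 1 left out the list's median was -0.27, and with NT replicate 2 left out it was 0.23. Of 9 regulators and scavenging genes 8 were tested, with 2 higher, 1 lower and a median of -0.07. They include PHR1, the transcription factor at the head of the response, with 298.8 and 277.7 in T, against 218.3 and 231.9 in NT (0.32).

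Of 11 phosphate transporter genes 10 were tested, with 0 higher and 5 lower without overlap (median -0.24). PT6, a transporter with a broad part in uptake and movement of phosphate, read 83.9 and 167.8 in T, against 224.6 and 387.4 in NT (-1.11 ± 0.32, limma adjusted p = 0.245). PT3 read 9.3 and 3 in T, against 38 and 39.6 in NT (-0.90), and its second tested probe set differed by -0.46. PHO1-2, which loads phosphate into the xylem, had 3 tested probe sets at -0.54, -0.47 and -0.13, and the brightest read 189 and 243.3 in T, against 306.3 and 347.8 in NT. PT8, a main uptake transporter, was bright and close between groups, with 1948.3 and 2166.7 in T, against 2189.4 and 2206.5 in NT (-0.10). It counts among the 5 lower, while the arrays of its other tested probe set overlapped (0.02). PT2 (0.15) and PT4 (0.11) overlapped between groups. PT12, also among the 5, was dim, with 8.2 and 13.9 in T, against 20.4 and 20.8 in NT (-0.29). The list's median was -0.41 without NT replicate 1 and -0.08 without NT replicate 2.

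Genes of root growth were described in several lists. Of 32 homeobox HOX and WOX genes 27 were tested, with 6 higher (22.2%), 8 lower (29.6%) and a median of -0.08. HOX1, a homeodomain-leucine zipper gene, read 1164.2 and 1050.5 in T, against 682.3 and 697.7 in NT (0.66 ± 0.15, limma adjusted p = 0.179). HOX4 (0.57) and HOX6 (0.73) were also higher on both T arrays, while Hox19 read 24.2 and 24.5 in T, against 56 and 51.2 in NT (-0.60 ± 0.13, adjusted p = 0.173). WOX11, a regulator of crown root emergence, read 22.4 and 19.6 in T, against 20.1 and 33.6 in NT. Of 6 root initiation and root hair genes 5 were tested, with 1 higher, 0 lower and a median of -0.19, and CSLD1, needed for root hairs, read 25.3 and 24.5 in T, against 13.9 and 25.1 in NT.

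Of 29 expansin genes 24 were tested, with 7 higher, 3 lower and a median of 0.07. EXPB6 read 80.2 and 47.5 in T, against 18.2 and 15 in NT (0.96 ± 0.20, limma adjusted p = 0.158). EXPB7 (0.62) and EXPA1 (0.59) were also higher on both T arrays, opposite to EXLA2, but dim beside it. EXPB7 read 69 and 40.8 in T, against 26.8 and 21.3 in NT, and EXPA1 29.3 and 23.7 in T, against 10.7 and 3.1 in NT. Auxin genes (54 tested) had 6 higher, 9 lower and a median of -0.02. The efflux carrier gene PIN5C read 6.3 and 14.8 in T, against 30.8 and 68.2 in NT (-0.91), and GH3.5, of the family that conjugates auxin, read 61.6 and 90.9 in T, against 128.9 and 180.9 in NT (-0.79). Cytokinin response genes (23 tested) had 7 higher, 4 lower and a median of -0.02. The response regulators RR4 (0.69), RR23 (0.54) and RR9 (0.52) were higher on both T arrays.

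Small heat shock proteins, chaperones that hold unfolding proteins in solution, were the list with the largest share on the higher side. All 19 genes were tested, 11 (57.9%) were higher without overlap and 1 was lower, and the median was 0.35. HSP23.2 read 652.2 and 495.8 in T, against 304.8 and 284.6 in NT (0.88 ± 0.19, limma adjusted p = 0.16). HSP26.2 read 321.4 and 282 in T, against 191.7 and 170 in NT (0.65), and HSP18.0 read 2062.1 and 1786.7 in T, against 1343.2 and 1428.1 in NT (0.46). T lay above NT in all 3 of these probe sets. A second tested probe set of HSP18.0 read 243.3 and 218.1 in T, against 240.7 and 147.8 in NT (0.24), with overlapping arrays. HSP18.6 had 3 tested probe sets. The brightest read 3509.1 and 3338.6 in T, against 2529.3 and 1948.8 in NT (0.62), the next differed by 0.91 and the dimmest by -0.20. The list's median was 0.21 to 0.43 when single arrays were left out, and 0.18 with the GAPDH covariate.

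Genes of diterpenoid phytoalexins, antimicrobial compounds of rice, leaned the other way. Of 20 genes 19 were tested, 2 were higher without overlap, 10 (52.6%) were lower, and the median was -0.34. KSL4, a diterpene synthase of the momilactone branch, read 55.5 and 37.9 in T, against 80.2 and 115.8 in NT (-0.72 ± 0.22, limma adjusted p = 0.266). CYP99A3, a cytochrome P450 of the same branch, read 424.7 and 454 in T, against 650 and 1001.3 in NT (-0.83). KS10 read 55.6 and 117.8 in T, against 200.4 and 123.3 in NT (-0.73), and KSL7 differed by -0.47 in its brighter and 0.23 in its dimmer probe set. NT replicate 2 was the highest array for KSL4, CYP99A3 and the brighter probe set of KSL7. The list's median was -0.59 without NT replicate 1 and -0.11 without NT replicate 2. Jasmonate and ethylene genes (49 tested) had 7 higher, 7 lower and a median of -0.13, among them the jasmonate repressor genes JAZ6 (-0.40) and JAZ2 (0.43), and the ethylene synthesis gene ACS1 (-0.51).

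The lists that hold the genes with a passing probe set were described on the brightest probe sets in the same way. Phenylpropanoid and lignin genes (23 tested), the list of PAL, had 6 higher, 1 lower and a median of -0.01, with HCT3 at 0.54 and 4CL5 at -0.48. Genes of peroxide and superoxide removal (15 tested), the list of CAT-B, had 4 higher, 1 lower and a median of 0.08, and the lower one was sodCp, a superoxide dismutase gene (-0.50). Potassium transport genes (24 tested), the list of HAK7, had 4 higher, 6 lower and a median of -0.05, with HAK9 at -0.49 and the channel gene KCO2 at 0.82. Calcium-dependent kinases and their partners (46 tested), the list of CPK13, had 9 higher, 4 lower and a median of 0.03. CIPK29 read 583.5 and 666 in T, against 323.4 and 418.1 in NT (0.71), and CIPK16 read 124 and 157.2 in T, against 229.1 and 429.1 in NT (-1.01). Genes of glycolysis, sucrose cleavage and fermentation (30 tested), the list of AldC-1, had 3 higher, 4 lower and a median of -0.11. In that list 23 differences were negative and 7 positive, against 6582 and 9584 over all genes, and of its 40 tested probe sets 13 were lower and 3 higher without overlap. The hexokinase genes HXK6 (0.44) and HXK2 (LOC4339420, 0.40, with its dimmer probe set at -0.35) were among the higher ones. Of 7 BURP-domain genes 5 were tested, and those other than BURP2 differed by -0.24 to -0.01 on their brightest probe sets. Cytosolic ribosomal protein genes (22 tested) had 4 higher, 4 lower and a median of 0.04.

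Markers of cell types that the root samples could hold were read as a check of the labels. The silicon channel gene Lsi1, which marks the root endodermis and exodermis, read 2121.4 and 2477.9 in T, against 2015.2 and 2772 in NT and was thus bright on every array. The other silicon transporter genes of that list were not. Lsi2 read 76.7 and 44.6 in T, against 26.6 and 106.8 in NT, while it read 2732.7 and 2495.2 in T, against 2418.2 and 2236.9 in NT, in P-fertilised soil. Lsi6 read 54.8 and 39 in T, against 44 and 33.1 in NT, and SCR1, a regulator of endodermis identity, 28.3 and 20.1 in T, against 16.6 and 24.9 in NT. The 5 genes of that list had 0 higher, 0 lower and a median of 0.02. The 5 tested vascular genes had 0 higher, 2 lower and a median of -0.13. The 3 tested flower and panicle genes read at most 45.9 on any of the 4 arrays. The 6 tested green tissue genes had 0 higher, 2 lower and a median of -0.20, and their summed signal was 232.5 and 255.1 in T, against 419.1 and 215.7 in NT. Dividing cell markers (18 tested) had 1 higher, 2 lower and a median of 0.09. The histone gene H2B.7 stood apart in that list, with 192.4 and 741 in T, against 1202.3 and 1128.3 in NT (-1.52 ± 0.47, limma adjusted p = 0.266). It differed by -0.63 with T replicate 1 left out and by -2.41 with T replicate 2 left out.

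**Figure D5:**
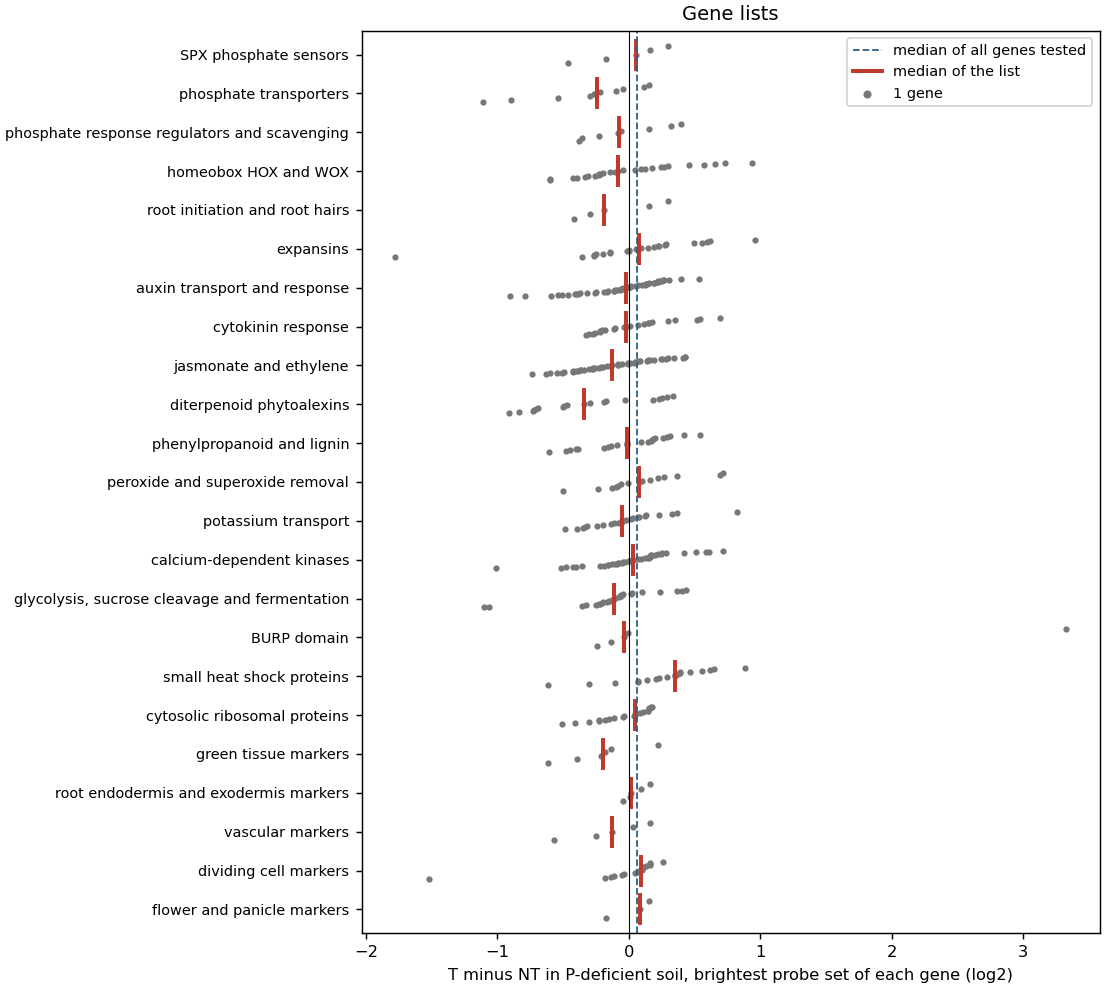
T minus NT difference in P-deficient soil (log2) of the brightest tested probe set of each gene (grey points) in 23 lists, with the median of each list as a red bar and the median of all genes, 0.06, as a dashed line. Small heat shock proteins (0.35) and diterpenoid phytoalexins (-0.34) have the medians farthest from it on either side, and BURP2 is the single point at 3.33.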

How the data were processed

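Total root RNA was hybridised to Affymetrix rice arrays, with 2 arrays in each of 4 groups. The deposited values are linear signal intensities per probe set, made by the authors with GCOS per the submitters' processing notes, with a version and settings that no label states. Judged by its values, each array was scaled to a trimmed mean of about 100 (100.01 to 100.02 with 2% trimmed at each end). No detection calls were used. The number of arrays limits the precision.

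The deposited intensities were turned into log2(signal + 32). The 187 control probe sets (123 AFFX, 64 reporter) and the 40% with the lowest mean over the 8 arrays were left out, and 34316 were tested. limma 3.58.1 in R 4.3.3 fitted 4 group means to all 8 arrays (lmFit, eBayes with trend), with Benjamini-Hochberg adjustment over all tested probe sets at 0.05. Every difference is T minus NT on that scale. An exact test of 2 against 2 arrays cannot go below p = 0.333, so none was run. On simulated data for T minus NT in P-deficient soil, over 34316 probe sets, 174 of 200 changed by 2 on the log2 scale were recovered, with 6 false calls. The 200 were drawn from the brighter probe sets, and the noise was independent between probe sets. Changes of dim probe sets and deviations shared across an array were therefore not covered.

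Genes come from the platform annotation, with names from a RefSeq table of assembly ASM3414082v1, used for names only. Of the probe sets, 22436 had 1 gene, 95 had several and 34663 had none listed. All 22436 matched the table. PHO2 and IPS1 were not found by name and have no value here.

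The groups, the 23 gene lists and the tests were chosen with earlier results of these data known, and list names were matched by gene name. Named genes are those with a passing probe set and 1 gene (of unnamed ones the 6 with the largest change each way), and the 10 literature-named genes each way whose probe sets all differed one way without overlap, by their smallest difference. Up to 4 members per list by p, and fixed phosphate and root genes, were added. Not all of these are printed. The alternatives were another pseudocount, filter, normalization, variance model or set of arrays, array weights, the GAPDH ratio, the replicate block, and each array left out in turn. The genotype of each array rests on the labels.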

Additional observations from a re-analysis of the deposited data

Results flagged for a closer look

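One signal came from data outside the comparison. A probe set for a reporter, RPTR-Os-K01193-1_at, of the controls for genes used in plant transformation, read 345.3 and 1887.6 in T in P-deficient soil, against 185.4 and 198 in NT. In P-fertilised soil it read 3348.2 and 3393.7 in T, against 176.7 and 10.8 in NT. It drew attention because both T arrays lay above the NT arrays in either soil. T replicate 1 of P-deficient soil read the lowest of the 4 T arrays. Whether the construct holds this reporter is not given in the sources used here, and the difference was not tested.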

How the results depend on the processing

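The 37 probe sets that passed in P-deficient soil (4 higher, 33 lower) were 13 with no filter (8 of the 37 among them), 10 on the 4 arrays of that soil alone, 7 with array weights and 0 with the GAPDH covariate. The labels number replicates alike, but same-numbered arrays deviated oppositely in P-deficient soil (correlation -0.261) and together in P-fertilised soil (0.21), so the numbers are not taken to pair the arrays. With the replicate block 0 passed, with adjusted p-values of 0.0542 to 0.165 for the 13 named genes. Crossed pairing, chosen after seeing the data, gave 68, of which 30 were among the 37. Single arrays left out gave 8 to 504, where a lone array is assumed to vary like the other groups, and the difference between soils gave 0 to 140 in place of 0. Without NT replicate 1 the 48 that passed held 16 higher and 32 lower. Of the 13 named genes with a passing probe set, 9 passed with a pseudocount of 1, 6 with no filter, 5 on the 4 arrays alone, 4 with array weights and 0 with the GAPDH covariate. With single arrays left out 2 (NT replicate 2) to 13 passed, with 7 without T replicate 1 or either NT array of P-fertilised soil and 8 without NT replicate 1. In the remaining settings other than the replicate block 12 or 13 passed. Genes whose probe sets share a direction were 1272 to 1376 (51.5% to 55.6%) in the settings tried, with 2 exceptions. These were 1691 of 3444 (49.1%) with no filter, and 628 of 1264 (49.7%) without probe sets ending in _x_at or _s_at.

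Chosen after seeing the data, the alternatives for sizes of at least 1 gave, with a pseudocount of 1, 2751 lower and 647 higher probe sets, and with 100, 192 and 9. Genes with the dimmest probe set lower and the brightest within 0.5 were 253 and 46 in these, and those with it higher 35 with a pseudocount of 1 and 1 with quantile normalization. With single arrays left out these 4 counts were 346 to 951, 45 to 239, 52 to 117 and 0 to 8.

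Among the named probe sets 28 values over 18 probe sets changed sign, all within 0.42 of 0. With single arrays left out, the other probe sets of LOC4337223 ranged over -0.16 to 0.05, HAK7 over -0.22 to 0.12, CAT-B over -0.08 to 0.08, LOC4347210 over -0.16 to 0.02, LOC4337351 over -0.88 to 0.06, AldC-1 over -0.46 to 0.18 and PAL over -0.36 to 0.04 and -0.35 to 0.13. SPX1 ranged over -0.52 to 0.17, SPX3 over -0.29 to 0.39, PT2 over -0.29 to 0.59, PT4 over -0.06 to 0.29, the HXK2 of LOC4326547 over -0.38 to 0.05, CSLD1 over -0.01 to 0.31 and WOX11 over -0.31 to 0.02. Quantile normalization turned LOC4337223 (0.06), CAT-B (0.08), LOC4347210 (0.01) and AldC-1 (0.00), and the GAPDH covariate turned MPK10 (0.18), NAC071 (0.05), LOC4347210 (0.04), PT8 (0.01), PT2 (-0.17) and SPX3 (-0.42). The cause was not tested. Signals near the floor of the arrays limit the differences of dim probe sets.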
